A study of Mus musculus with 10 samples.

Results

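The 41 genes described here encode the ligands, receptors and coreceptors, extracellular regulators, SMADs, corepressors and ubiquitin ligases of transforming growth factor-beta (TGF-beta) and bone morphogenetic protein (BMP) signalling, together with the ID genes, which are classical BMP targets. They were taken by gene symbol from an Affymetrix array table in which 18193 genes had a probe set assigned to 1 gene. Each gene was read through 1 probe set, the one brightest on average across the 10 arrays. All 41 genes were on the array, and 38 of them passed a filter that left out the dimmest 25% of genes, so that 13644 genes in all were tested. The 3 genes left out as dim were the BMP ligands Bmp2, Bmp4 and Bmp6.

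The arrays measured RNA of 3T3-L1 cells, an established mouse line of fibroblast-like preadipocytes that can be turned into fat cells, grown in calf serum. The cells had received 60 nM of either a scrambled control small interfering RNA (siC) or one directed against LSD1 (siLsd1), and RNA was taken 24 h or 48 h later with no change of medium. LSD1, encoded by Kdm1a, is a histone demethylase that removes methyl groups from lysine 4 of histone H3. There were 4 groups, namely siC and siLsd1 at 24 h in cells of passage 19 (2 arrays each) and siC and siLsd1 at 48 h in cells of passage 21 (3 arrays each). Each array held a separate biological replicate per the labels. Every group was transfected, so no untreated cells stand beside them, and the 2 times differ in passage as well, so that time and passage cannot be told apart. All groups share 1 cell line.

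TGF-beta, activins and BMPs are secreted dimers that bring together type I and type II receptor kinases at the cell surface. Receptors of TGF-beta and activin phosphorylate SMAD2 and SMAD3, those of BMPs phosphorylate SMAD1 and SMAD5, and both kinds of SMAD enter the nucleus with SMAD4. SMAD6 and SMAD7 are inhibitory SMADs whose genes are induced by the same signals. In preadipocytes, TGF-beta and activin are known to hold back fat cell formation, while BMPs can commit precursors to the fat lineage.

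The targeted transcript was lower in the siLsd1 groups at both times: Kdm1a read 1559 and 1621 intensity units with siC and 1001 and 971 with siLsd1 at 24 h, a log2 change of -0.69 ± 0.17 (SE; adjusted p = 0.0473). The 48 h arrays gave 1596, 1787 and 1775 with siC and 1352, 1336 and 897 with siLsd1, a change of -0.55 ± 0.14 (adjusted p = 0.0338). The lowest of these values came from siLsd1 48 h replicate 3, an array that stood apart. Over 6943 bright genes the SD of its log2 difference from the other siLsd1 48 h arrays was 0.441 and 0.439, where other pairs within a group gave 0.089 to 0.205. Over the 38 tested genes of the pathway its median absolute log2 difference from those replicates was 0.36 and 0.35, with 9 and 10 genes over 1.5-fold apart, against a median of 0.08 and 0 such genes between replicates 1 and 2. From the siLsd1 24 h arrays it was less far, at an SD of 0.361 and 0.353 and a median of 0.28 and 0.31. Whether its label is right was not tested. Counts of calls are therefore given with and without this array, as are many changes of the 38 genes. The changes of Kdm1a and of genes outside the 38 are given only with it. The 48 h change of Kdm1a thus leans on its value of 897, beside 1352 and 1336 on the other siLsd1 arrays.

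The labelled cell type was read from markers. Of 11 fibroblast and preadipocyte markers on the array 10 passed the filter, and the summed intensity of all 11 was 59747 to 61949 with siC and 51840 to 52405 with siLsd1 at 24 h, and 60808 to 61928 with siC and 43565 to 56341 with siLsd1 at 48 h; Cd34 was the 1 below the filter. Mature adipocyte markers passed in 3 of 6 cases and summed to 3613 to 3704 with siC and 1437 to 1728 with siLsd1 at 24 h, and to 4706 to 5450 and 1488 to 3131 at 48 h. Nearly all of that sum was Fabp4, a fatty acid carrier, and Lep and Cidec were below the filter. Sums over leukocyte markers (5 of 7 passed) were 419 to 577 on all arrays, those over endothelial markers (2 of 6) 114 to 169 and those over epithelial markers (2 of 6) 73 to 122, with Ptprc, Pecam1, Cdh5, Epcam and Cdh1 all below the filter. The part of the lower fat cell and fibroblast marker sums in the results that follow was not tested. In bulk RNA, fewer cells of a kind and less RNA per cell cannot be told apart.

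Knockdown of LSD1 went with changes in a small number of these genes, spread over the roles of the pathway. At 24 h Inhba, the subunit of activin A, and Bambi, a decoy receptor, rose, and Bmpr2, the type II BMP receptor, fell. At 48 h Inhba, the type II activin receptor gene Acvr2a, Smad2 and the corepressor gene Tgif1 rose, while Bmp1, Ltbp2 and Smad3 fell. The ID genes were not called at either time. A gene is said to have risen or fallen, or to be called, where limma's adjusted p (Benjamini-Hochberg over the 13644 genes) was under 0.05. Lack of overlap between groups is given as a description of the arrays and is not a call. With 2 arrays per group at 24 h it is easily met. The 24 h groups of Tgfbr2, Id2 and Skil, at log2 changes of 0.10, -0.07 and 0.06, did not overlap either. The share of all genes without overlap was not counted.

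In counts, 3 of 38 genes were called at 24 h, 2 higher and 1 lower, where 5.39% of all genes tested were called (2.60% higher and 2.79% lower). At 48 h 7 of 38 were called, 4 higher and 3 lower, where 12.7% of all genes were (6.00% higher and 6.67% lower). The median log2 change of the 38 genes was -0.03 at both times, beside -0.02 for all genes, and their median absolute change was 0.18 at 24 h and 0.22 at 48 h, beside 0.21 and 0.21. Without siLsd1 48 h replicate 3 the fit called 13 of 38 at 24 h, 4 higher and 9 lower, against a background of 25.5% (10.1% higher and 15.3% lower), and 10 of 38 at 48 h, 5 higher and 5 lower, against 18.1% (8.16% and 9.96%). That array enters the 24 h comparison through the spread, which all groups share in the fit. All 3 calls at 24 h and all 7 at 48 h were kept without it. With all arrays these were 7.89% of the 38 genes at 24 h and 18.4% at 48 h, near the background, so the counts are not read as a result about the set.

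**Figure D1:**
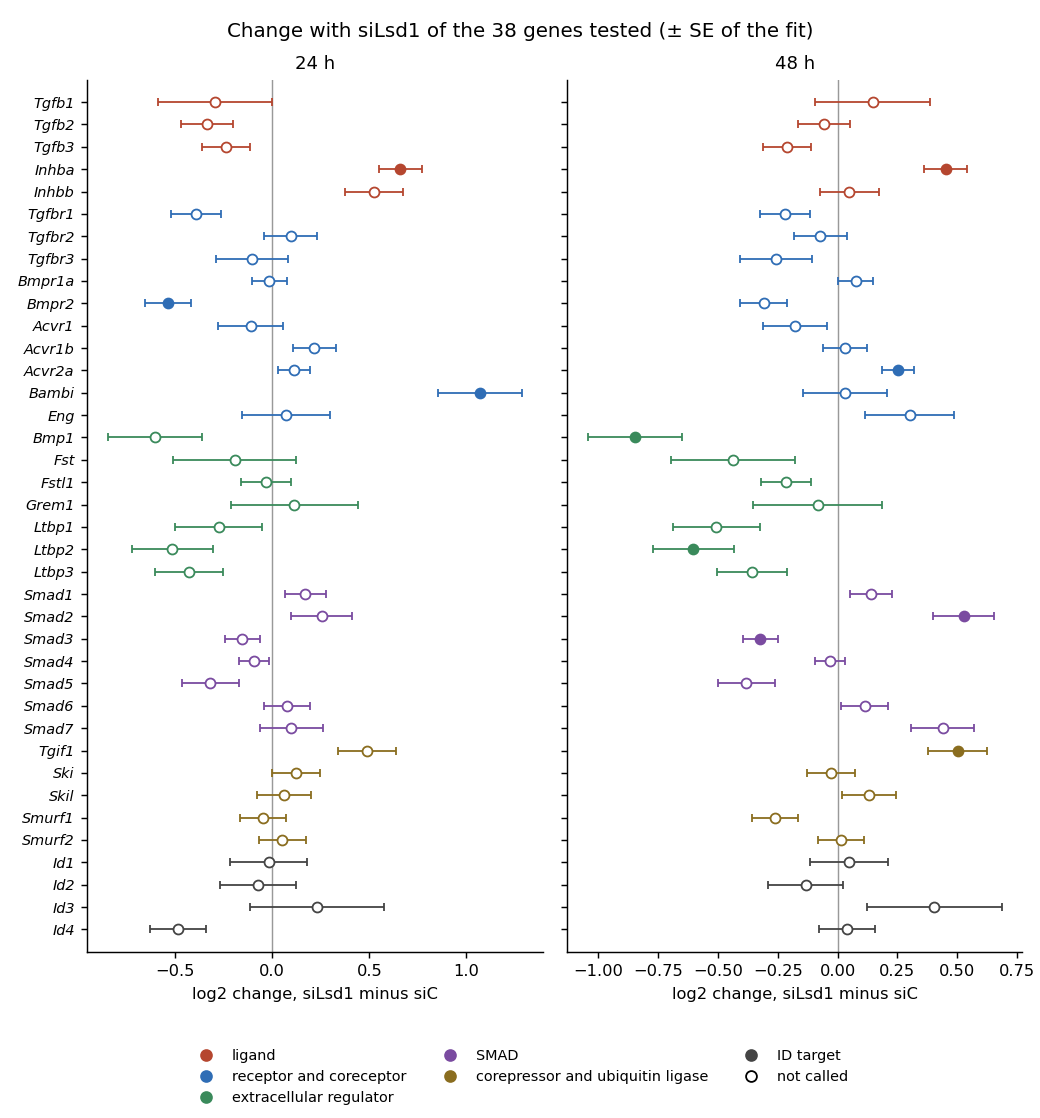
Log2 change (siLsd1 minus siC, x axis) of the 38 genes tested, at 24 h (left) and 48 h (right), ordered and coloured by role; points are estimates of the fit, bars ± SE, and filled points the genes called. The 3 called genes at 24 h and the 7 at 48 h lie among open points on both sides of 0, and Bambi at 24 h, at 1.07, is the farthest from it.

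Among the ligands, Inhba encodes the activin beta A subunit, which dimerises to activin A. Its intensity was 775 and 777 on the siC arrays at 24 h and 1259.7 and 1193 on the siLsd1 arrays, and at 48 h it was 665, 745 and 658 on the former and 891, 889 and 1051 on the latter. Every siLsd1 array lay above every siC array of its time. The log2 change was 0.66 ± 0.11 at 24 h (1.58-fold, adjusted p = 0.00995) and 0.45 ± 0.09 at 48 h (1.37-fold, adjusted p = 0.0151); without siLsd1 48 h replicate 3 the latter was 0.37. With all arrays it was the only gene of the 38 called at both times, and without that array Bmp1, Ltbp1, Ltbp2 and Tgif1 were too. How many of all genes were called at both times was not counted, so this does not set Inhba apart. The 24 h call was lost when any 1 of the 4 arrays of 24 h was left out (log2 0.62 to 0.70, adjusted p 0.0663 to 0.128), and the 48 h call without siC 48 h replicate 1 (0.43, adjusted p = 0.0579) or replicate 3 (0.42, 0.0578). The latter was also lost with only the arrays of 48 h in the fit (adjusted p = 0.0705) and with the mean of the gene's probe sets (0.17, adjusted p = 0.611). Over all alternatives the adjusted p ran from 0.000109 to 0.478 at 24 h and from 0.00364 to 0.611 at 48 h. A second Inhba probe set, dim at a mean of 17.7, gave -1.34 at 24 h and -0.12 at 48 h, and the mean of both gave -0.34 at 24 h, the reverse sign.

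Inhbb, which encodes the beta B subunit of activin B, read 147 and 194 with siC and 249 and 236 with siLsd1 at 24 h, while siC gave 139.8, 139.9 and 159.8 at 48 h, where siLsd1 gave 152, 142 and 161. The 24 h groups did not overlap and the 48 h groups did. Its log2 change was 0.52 ± 0.15 at 24 h (adjusted p = 0.0729; 0.016 without siLsd1 48 h replicate 3, when it was called) and 0.05 ± 0.12 at 48 h (adjusted p = 0.818). The 3 TGF-beta isoforms were not called at either time. Tgfb2 read 273 and 301 with siC and 223 and 231 with siLsd1 at 24 h (log2 -0.34 ± 0.13, adjusted p = 0.173, and 0.0344 without that array), and its 48 h change was -0.06 ± 0.11. Tgfb3 had log2 differences of -0.24 ± 0.12 and -0.21 ± 0.10 at 24 h and 48 h, and its groups overlapped at neither time. Tgfb1, at 37.3 to 71.3 over the 10 arrays, gave -0.29 ± 0.29 and 0.15 ± 0.24, with overlap at both. Of the dim BMP ligands, Bmp2 read 1.40 to 20.3, Bmp4 10.5 to 36.9 and Bmp6 1.62 to 11.9 over the 10 arrays, too low for a change to be read.

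Among the receptors, Bmpr2 encodes the type II receptor shared by many BMPs. At 24 h it read 1322 and 1319.6 with siC and 867 and 958 with siLsd1, while siC gave 1344, 1298 and 1484 at 48 h, where siLsd1 gave 1128, 1240.2 and 973. Each siLsd1 array lay below each siC array of its time. The log2 change was -0.53 ± 0.12 at 24 h (1.45-fold lower, adjusted p = 0.0335) and -0.31 ± 0.10 at 48 h, where it was not called (adjusted p = 0.0636). Its 24 h call was lost without any 1 array of 24 h (log2 -0.61 to -0.46, adjusted p 0.116 to 0.264) and without siC 48 h replicate 1 (-0.53, adjusted p = 0.0503) or replicate 2 (-0.53, 0.0630). It was lost too with no trend of the spread with intensity in the fit (adjusted p = 0.0676) and with the mean of its probe sets (-0.39, adjusted p = 0.350), in a range of 0.000776 to 0.350 over the alternatives. Both other Bmpr2 probe sets had the same sign at both times, at -0.34 and -0.29 at 24 h and -0.62 and -0.11 at 48 h.

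Bambi encodes a transmembrane protein that resembles a type I receptor but lacks the kinase domain, and so dampens signalling. At 24 h it read 134 and 125 with siC and 297 and 249 with siLsd1, and at 48 h 72.2, 95.4 and 88.9 with siC and 106, 91.9 and 67.3 with siLsd1. The siLsd1 arrays of 24 h were the highest of all 10, and the 48 h groups overlapped. The log2 change was 1.07 ± 0.22 at 24 h (2.1-fold, adjusted p = 0.0229) and 0.03 ± 0.18 at 48 h (adjusted p = 0.925), where it was 0.21 without replicate 3. The difference of both changes was -1.04 ± 0.28, with an unadjusted p of 0.00391 and an adjusted p of 0.516, so that it was not called. Leaving out any 1 array of 24 h ended the 24 h call, with log2 0.94 to 1.20 and adjusted p 0.0851 to 0.216 (range over the alternatives 0.000512 to 0.216).

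Acvr2a, a type II receptor of activins, was called at 48 h, where it read 1862, 1937 and 2125 with siC and 2343, 2416 and 2287 with siLsd1. The groups did not overlap, and the change was small, 0.25 ± 0.07 (1.19-fold, adjusted p = 0.0361). At 24 h it read 2216 and 2354 against 2491 and 2451, a change of 0.11 ± 0.08 that was not called. The 48 h call was lost without any 1 of the 4 arrays of 24 h (adjusted p 0.0559 to 0.0673), without siC 48 h replicate 1 (log2 0.21, adjusted p = 0.103) or 2 (0.24, 0.125), and without siLsd1 48 h replicate 1 (0.25, 0.0608) or 2 (0.23, 0.0746). It was lost also with no intensity trend (0.0804) and with only the arrays of 48 h (0.110); over the alternatives the adjusted p was 0.00348 to 0.125. Its second probe set gave 0.17 at 24 h and 0.44 at 48 h.

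The other 7 receptors and coreceptors were not called at either time. Tgfbr1, the type I TGF-beta receptor, read 784 and 887 with siC and 617 and 653 with siLsd1 at 24 h, groups that did not overlap, with a change of -0.39 ± 0.13 (adjusted p = 0.104, and 0.0221 without siLsd1 48 h replicate 3). Its 48 h change was -0.22 ± 0.10. Tgfbr2, the type II TGF-beta receptor, stood at a log2 difference of 0.10 ± 0.14 at 24 h and -0.07 ± 0.11 at 48 h, and Tgfbr3, the coreceptor betaglycan, at -0.10 ± 0.19 and -0.26 ± 0.15. The type I receptors Bmpr1a, Acvr1 and Acvr1b had differences of -0.01, -0.11 and 0.22 at 24 h and of 0.08, -0.18 and 0.03 at 48 h, with SEs of 0.07 to 0.17. Eng, the coreceptor endoglin, at 76.7 to 147 over the 10 arrays, had values of 0.07 ± 0.23 and 0.30 ± 0.18.

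The 7 extracellular regulators all had a negative change at 48 h, between -0.85 and -0.08, beside 52.2% of all genes tested, and 2 of the 7 were called, beside 12.7%. Without siLsd1 48 h replicate 3 there were 6 negative changes of 7, beside 51.5%, the sign of Grem1 turning, and 3 of 7 were called, beside 18.1%. Bmp1, despite its name, encodes a metalloprotease that cleaves procollagens and the BMP antagonist chordin. It read 1174, 1176 and 987 with siC and 726, 760.3 and 424 with siLsd1 at 48 h, while siC gave 545 and 444 at 24 h, where siLsd1 gave 327 and 322. The siLsd1 arrays were the lower at both times, and replicate 3 was the lowest of its group. At 48 h the change was -0.85 ± 0.20 (1.8-fold lower, adjusted p = 0.0267), or -0.58 without replicate 3 (adjusted p = 0.00276). At 24 h it was -0.60 ± 0.24 (adjusted p = 0.178, and 0.00228 without that array). The 48 h call was lost without siLsd1 24 h replicate 1 or 2 (-0.85, adjusted p = 0.05006 and 0.05004), and without siC 48 h replicate 1, 2 or 3 (-0.81, -0.81 and -0.93, adjusted p = 0.0850, 0.0953 and 0.0573). Other settings that ended it were no intensity trend (adjusted p = 0.0510), only the arrays of 48 h (0.0839) and the mean of its probe sets (-0.27, 0.318), in a range of 1.02e-05 to 0.318 over the alternatives. Of 2 further Bmp1 probe sets, 1 gave -0.62 at 48 h and a dim one, at a mean of 11.9, gave 0.64.

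Some, not all, of the latent TGF-beta binding proteins hold latent TGF-beta in the matrix. Ltbp2 encodes a protein of the family found on microfibrils. Ltbp2 read 1734, 1551 and 1722 with siC and 1335, 1267 and 779 with siLsd1 at 48 h, while siC gave 2378 and 2389 at 24 h, where siLsd1 gave 1646 and 1694. Here too the groups did not overlap at either time. The change was -0.60 ± 0.17 at 48 h (1.52-fold lower, adjusted p = 0.0448), or -0.36 without replicate 3 (adjusted p = 0.00235), and -0.51 ± 0.21 at 24 h (adjusted p = 0.179, and 0.000259 without that array). Its 48 h call was lost without any 1 array of 24 h (-0.60, adjusted p 0.0712 to 0.0752) and without siC 48 h replicate 1, 2 or 3 (-0.58, -0.66 and -0.58, adjusted p = 0.119, 0.102 and 0.115). It did not hold either with no filter on dim genes (adjusted p = 0.0552), with the mean of its probe sets (0.0584), with no intensity trend (0.0801) or with only the arrays of 48 h (0.122), in a range of 0.00235 to 0.122.

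Ltbp1 and Ltbp3 had the same sign and were not called. Ltbp1 read 987, 992 and 1011 with siC and 870.2, 819 and 483 with siLsd1 at 48 h, after 1174 and 1268 (siC) against 1039 and 979 (siLsd1) at 24 h. The siC arrays of 48 h read 2836, 3032 and 3325 for Ltbp3 where siLsd1 gave 2742, 2705 and 1836, and at 24 h siC gave 2111 and 2508 where siLsd1 gave 1756 and 1667. Neither gene's groups overlapped at either time. For Ltbp1 the log2 difference was -0.28 ± 0.22 at 24 h and -0.51 ± 0.18 at 48 h (adjusted p = 0.0916), and for Ltbp3 it was -0.43 ± 0.18 and -0.36 ± 0.14 (adjusted p = 0.123). Without siLsd1 48 h replicate 3 Ltbp1 was called lower at both times (-0.28 and -0.24) and Ltbp3 at 24 h (-0.43). With the mean of its probe sets Ltbp3 was called lower at 48 h (-0.64, adjusted p = 0.0416). All 5 further probe sets of Ltbp1 and Ltbp3 also had negative changes at both times, from -0.74 to -0.49 at 24 h and from -0.94 to -0.26 at 48 h.

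The remaining regulators bind ligands. Fst, the activin antagonist follistatin, read 1737, 2021 and 2038 with siC and 2025, 1673 and 851 with siLsd1 at 48 h, where 1 array, replicate 3, lay below all others of that time. Its change was -0.44 ± 0.26, and -0.07 without replicate 3, and -0.19 ± 0.32 at 24 h. Fstl1, a secreted follistatin-like glycoprotein, had log2 differences of -0.03 ± 0.13 at 24 h and -0.22 ± 0.10 at 48 h (-0.07 without replicate 3). The BMP antagonist gene Grem1 was variable. On its siC arrays it read 1432 and 964 at 24 h and 781, 811 and 420.4 at 48 h, and the siLsd1 arrays of the same times gave 1258 and 1288, then 738, 674 and 449 (log2 differences of 0.12 ± 0.33 and -0.08 ± 0.27, the latter turning to 0.13 without siLsd1 48 h replicate 3).

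The genes of the 2 SMADs that answer TGF-beta and activin moved in opposite directions at 48 h. Smad2 read 380.1, 416 and 439.6 with siC and 512, 564 and 721 with siLsd1, a change of 0.53 ± 0.13 (1.44-fold, adjusted p = 0.029), or 0.39 without replicate 3. Smad3 read 1390.3, 1258 and 1354 against 1063, 1132 and 1004, a change of -0.32 ± 0.07 (1.25-fold lower, adjusted p = 0.0241), or -0.28 without it. Groups overlapped for neither gene. At 24 h Smad2 read 635 and 639.6 against 707 and 817 (0.25 ± 0.15) and Smad3 1067 and 1035 against 956 and 936 (-0.15 ± 0.09), neither of them called.

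Both 48 h calls were lost without siC 48 h replicate 1, 2 or 3, at log2 0.47, 0.54 and 0.58 for Smad2 (adjusted p = 0.0909, 0.0927 and 0.0630) and -0.29, -0.36 and -0.31 for Smad3 (0.0770, 0.0598 and 0.0758). The Smad2 call was also lost without siC 24 h replicate 1 or 2 (0.53, adjusted p = 0.0502 and 0.0503). The adjusted p ran from 0.00209 to 0.662 for Smad2 and from 0.00981 to 0.668 for Smad3 over the alternatives, and with the mean of each gene's probe sets the changes were 0.07 and -0.09, neither called. Both calls were lost with only the arrays of 48 h (adjusted p = 0.0908 and 0.0892), that of Smad2 with no intensity trend (0.0515) and that of Smad3 with arrays centred on their median (0.0531). A second Smad2 probe set, at a mean of 195, gave -0.40 at 48 h, and of 2 further Smad3 probe sets 1 gave -0.18 and the other 0.22. The opposite movement is thus that of 1 probe set per gene.

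**Figure D2:**
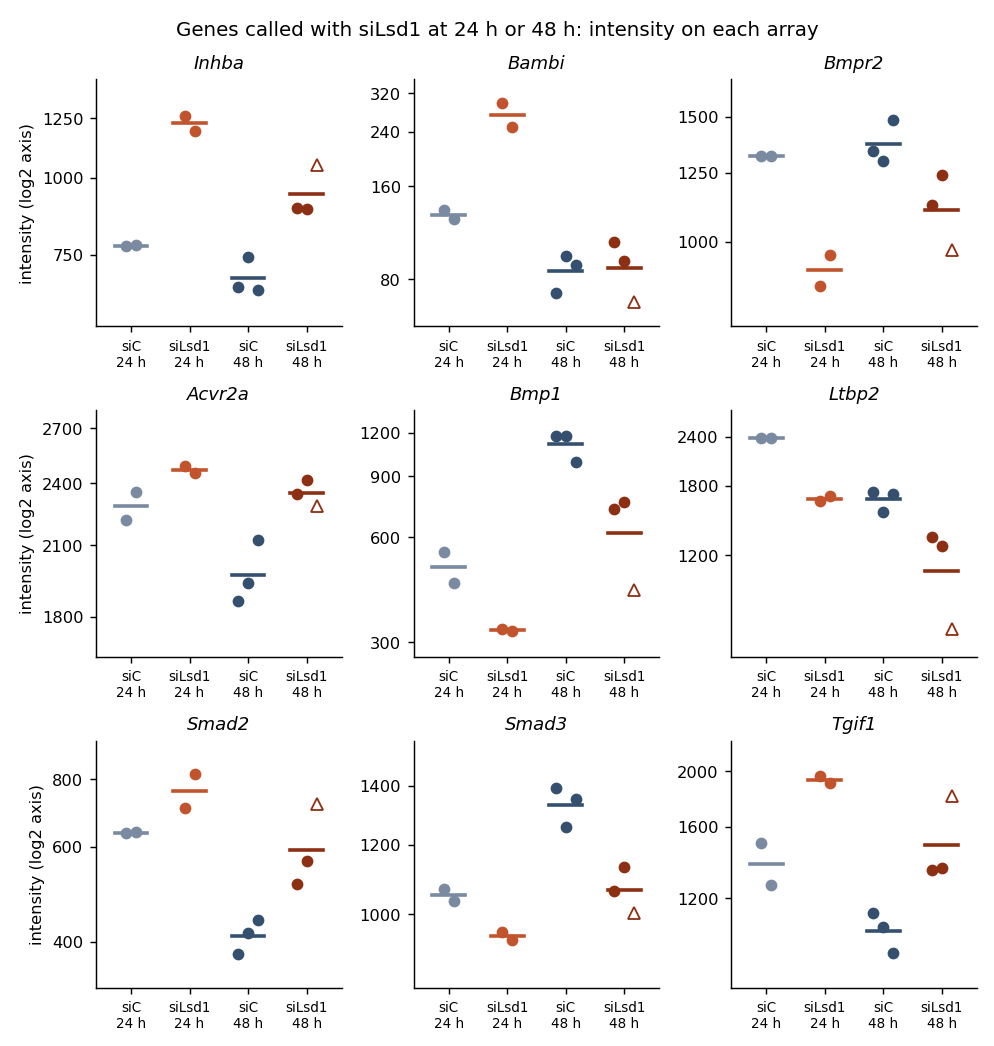
Intensity (log2 axis) on each array of the 9 genes called with siLsd1 at 24 h or 48 h; points are arrays, lines geometric means of a group, and open triangles siLsd1 48 h replicate 3. Inhba lies higher and Bmpr2, Bmp1, Ltbp2 and Smad3 lower on all siLsd1 arrays of a time than on the siC arrays of that time, and the Bambi groups separate at 24 h only.

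The BMP-responsive Smad1 had log2 differences of 0.17 ± 0.11 at 24 h and 0.14 ± 0.09 at 48 h, and was not called. Smad5 read 835, 915 and 967 with siC and 749, 774 and 578 with siLsd1 at 48 h, groups that did not overlap; the difference was -0.38 ± 0.12 (adjusted p = 0.0603), after -0.32 ± 0.14 at 24 h (adjusted p = 0.229, and 0.0202 without siLsd1 48 h replicate 3). Its 2 other probe sets had changes of both signs at 48 h, -0.56 and 0.57. Smad4, the common partner, was not called, at -0.09 ± 0.08 and -0.03 ± 0.06. Smad6, an inhibitor of BMP signals, gave 0.08 ± 0.12 and 0.11 ± 0.10. Smad7, which blocks type I receptors, read 263, 339.8 and 369.7 with siC and 457, 418 and 432 with siLsd1 at 48 h. Those groups did not overlap, and the change of 0.44 ± 0.13 missed the threshold (adjusted p = 0.0548, and 0.0436 without replicate 3); at 24 h it was 0.10 ± 0.16. The second Smad7 probe set gave 0.15 and 0.45.

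Of the corepressors and ubiquitin ligases, Tgif1, a homeodomain protein that recruits corepressors to SMAD2 and SMAD3, was called at 48 h. It read 1129, 1069 and 963 with siC and 1345, 1356 and 1809.9 with siLsd1, and 1501 and 1266 against 1966 and 1904 at 24 h. Every siLsd1 array was above every siC array of its time. The change was 0.50 ± 0.12 at 48 h (1.42-fold, adjusted p = 0.0303), or 0.36 without replicate 3, and 0.49 ± 0.15 at 24 h (adjusted p = 0.0889, and 0.00248 without that array). The call was lost without siLsd1 24 h replicate 1 or 2 (0.50, adjusted p = 0.0561 and 0.0560) and without siC 48 h replicate 1, 2 or 3 (0.55, 0.51 and 0.44, adjusted p = 0.0646, 0.0927 and 0.0952), and with no intensity trend (0.0587) or only the arrays of 48 h (0.0879), in a range of 0.0120 to 0.0952.

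Ski and Skil, corepressors that bind SMADs directly, stood at 0.12 ± 0.12 and 0.06 ± 0.14 at 24 h and at -0.03 ± 0.10 and 0.13 ± 0.11 at 48 h. Smurf1 and Smurf2, ubiquitin ligases for SMADs and receptors, gave log2 differences of -0.04 ± 0.12 and 0.05 ± 0.12 at 24 h, and of -0.26 ± 0.10 and 0.01 ± 0.10 at 48 h. Smurf1 at 48 h, with 435, 373 and 373 against 318, 354 and 313, was the only one of these 4 whose groups did not overlap at 48 h (adjusted p = 0.0981).

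The ID genes encode helix-loop-helix proteins without a DNA-binding domain, which bind and inhibit other factors of that class. With siLsd1 limma called 0 of the 4 at either time, beside 5.39% and 12.7% of all genes. At an unadjusted p under 0.05 there was 1 at 24 h and 0 at 48 h, beside 22.5% and 31.7%. Id1 had a log2 difference of -0.02 ± 0.20 at 24 h and 0.05 ± 0.16 at 48 h, Id2 of -0.07 ± 0.19 and -0.13 ± 0.16, and Id3 of 0.23 ± 0.34 and 0.40 ± 0.28. The 48 h values rest on siLsd1 48 h replicate 3, which was the highest of the 6 arrays of that time for all 3 genes. Without it the 48 h changes were -0.18, -0.34 and -0.01, of which that of Id2 was called (adjusted p = 0.0149). Id4 read 609 and 556 with siC and 407 and 425 with siLsd1 at 24 h, groups that did not overlap, a change of -0.48 ± 0.14 (adjusted p = 0.0811, and 0.0192 without that array, when it was called lower). The 48 h value of Id4 was 0.04 ± 0.12.

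Whether the response to siLsd1 differed between the times was tested as the difference of the 2 changes, in which time and passage cannot be told apart. limma called 0 of 38 genes, and 0 of all 13644 (0.00%). At an unadjusted p under 0.05 there were 3 of the 38, beside 896 of all genes. These were Bambi, given above, Inhbb (-0.47 ± 0.19, adjusted p = 0.708) and Id4 (0.53 ± 0.19, adjusted p = 0.621). Without siLsd1 48 h replicate 3 limma called 0 of the 38 and 201 of all 13644 genes. The difference of Bambi was then -0.86 (adjusted p = 0.0733), and Inhba, Bmpr2 and Id2 joined those at an unadjusted p under 0.05. The share of all genes at that unadjusted p was not counted in this fit, so the larger number cannot be read. A call at 1 time alone, such as that of Bambi or Bmp1, is therefore not shown to differ from the other time. Between the 24 h and 48 h comparisons, which share no arrays, 31 of 38 genes had a change of the same sign (81.6%; 14 positive and 17 negative), beside 72.2% of all genes tested.

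In the siC cells, levels at 48 h (passage 21) were set against those at 24 h (passage 19), to show how the pathway stood in the controls of each knockdown comparison. The inhibitory SMAD genes Smad6 and Smad7 and all 4 ID genes were lower at 48 h, by 1.88-fold to 4.5-fold, as were Tgfb2, Bambi, Smad2 and Skil. Bmp1, Tgfbr3, Acvr1b, Smad3, Smad4 and Smad5 were higher. This comparison uses the same siC arrays as those with siLsd1, so its values are set beside them and not combined with them.

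Of 38 genes 16 (42.1%) were called, 6 higher and 10 lower, where 24.2% of all genes tested were called (12.0% higher and 12.2% lower). The median change of the 38 was -0.08, beside 0.01 for all genes, and the median absolute change 0.37 beside 0.26. Changes were over 1.5-fold in 13 of the 38 and over 2-fold in 6. The share of all genes past these sizes was not counted. With every array centred on its median, the median of all genes moved to -0.13. There 18 were called, 3 higher and 15 lower, beside 3676 of all 13644 genes, the calls of Smad3, Smad4 and Smad5 being lost. Without siLsd1 48 h replicate 3, which enters only through the shared spread, 26 of 38 were called, 10 higher and 16 lower, against 40.4% of all genes (21.1% and 19.3%). The 16 calls were all kept there. Without siC 24 h replicate 1 or 2, which left 1 array in that group, fewer were called, among all genes as among the 38.

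The changes of Id4, Id3 and Id2 were larger in size than that of any other of the 38 genes. Id4 read 609 and 556 on the siC arrays at 24 h and 152, 118 and 121 at 48 h, a log2 change of -2.17 ± 0.13 (4.5-fold lower, adjusted p = 2.19e-05). Id3 went from 3186 and 2613 to 1071, 893 and 855, a change of -1.63 ± 0.32 (3.09-fold lower, adjusted p = 0.00525). Id2 went from 1343 and 1357 to 415, 455 and 488, a change of -1.58 ± 0.18 (2.99-fold lower, adjusted p = 0.00027). Id1 went from 4686 and 4025 to 2242, 1906 and 1977, a change of -1.09 ± 0.18 (2.13-fold lower, adjusted p = 0.00226). No siC array of 48 h reached the lowest of 24 h for any of the 4, a description for which no share of all genes was counted.

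The siLsd1 arrays of 48 h likewise lay below those of 24 h. They read 4202 and 4379.9 at 24 h and 1819, 1787 and 2872 at 48 h for Id1, 1237 and 1334, then 377, 336 and 551, for Id2, 3302 and 3479, then 958, 896 and 2203, for Id3, and 407 and 425, then 142, 121 and 137, for Id4. Replicate 3 at 48 h stood above its group for Id1, Id2 and Id3, at 2872, 551 and 2203, and not for Id4. Calls of Id1, Id2 and Id4 were kept under all 18 alternatives (log2 -1.23 to -0.98, -1.72 to -0.97 and -2.31 to -2.04), and that of Id3 under 17, being lost without siC 24 h replicate 1 (-1.48, adjusted p = 0.0553; range 6.03e-07 to 0.0553). The other Id4 probe sets gave -2.24 and -2.41, and those of Id2 -1.69 and, for a dim one at a mean of 25.3, 0.36.

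Because these 4 genes moved together in the control cells, the promoter sequences that the RefSeq table (GRCm38.p6) holds for Id2, Id3 and Id4 are shown, each as the 250 bases upstream of a transcription start, read 5′ to 3′ on the strand of the gene. Capitals mark the SMAD box CAGAC, or its reverse complement GTCTG, and the GC-rich SMAD element GGCGCC, which is its own reverse complement; both are letter patterns that SMAD proteins are known to bind, searched on both strands, and a match of one can share 1 base with a match of the other, which none did in the windows shown.
Id2 (chr12:25096093-25096342, minus strand): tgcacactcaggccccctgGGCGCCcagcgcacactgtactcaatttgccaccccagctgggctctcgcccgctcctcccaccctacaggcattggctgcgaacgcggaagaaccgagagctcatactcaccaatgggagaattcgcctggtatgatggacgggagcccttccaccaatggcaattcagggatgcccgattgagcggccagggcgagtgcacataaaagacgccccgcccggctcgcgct
Id3 (chr4:136143572-136143821, plus strand): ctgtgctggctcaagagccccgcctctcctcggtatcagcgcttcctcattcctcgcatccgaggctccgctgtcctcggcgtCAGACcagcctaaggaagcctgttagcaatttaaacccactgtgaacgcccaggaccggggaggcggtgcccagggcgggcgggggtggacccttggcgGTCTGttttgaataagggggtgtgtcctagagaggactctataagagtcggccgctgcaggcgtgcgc
Id4 (chr13:48260866-48261115, plus strand): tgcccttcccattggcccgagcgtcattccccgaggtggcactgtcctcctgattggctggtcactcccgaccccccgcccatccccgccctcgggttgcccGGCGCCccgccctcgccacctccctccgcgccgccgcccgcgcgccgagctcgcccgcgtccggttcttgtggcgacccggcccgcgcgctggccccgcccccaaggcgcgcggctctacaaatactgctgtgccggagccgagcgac

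The Id3 window held CAGAC with its first base 167 bases before the start site and GTCTG 68 bases before it. In the Id2 window GGCGCC began 231 bases before the start and in the Id4 window 148 bases before it. Over the whole set, 30 of the 41 genes had an entry, with 38 windows among them. CAGAC in either orientation was in 18 of the 38 windows, beside 42.2% of all 32851 windows of the same length in the table, and GGCGCC in 9 of 38, beside 9.6%. A match describes letters and does not show that a SMAD binds there.

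**Figure D3:**
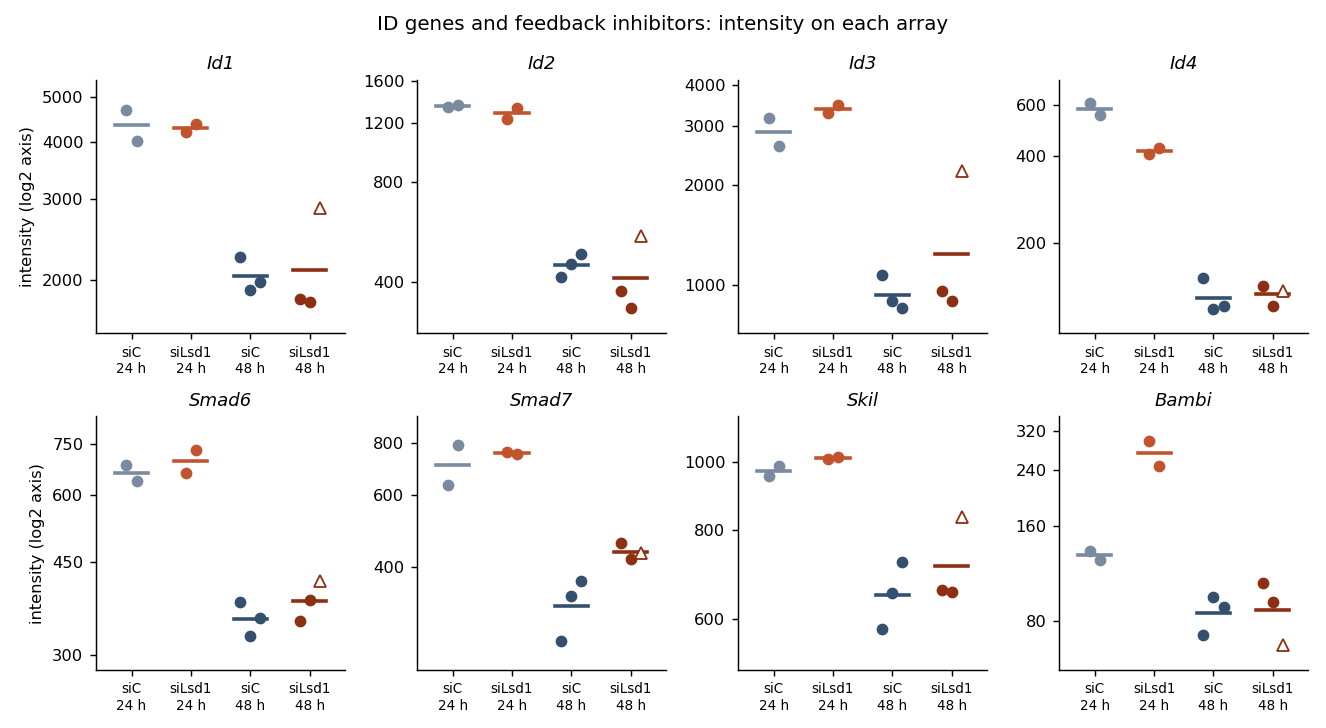
Intensity (log2 axis) on each array of Id1 to Id4, Smad6, Smad7, Skil and Bambi; points are arrays, lines geometric means of a group, and open triangles siLsd1 48 h replicate 3. The arrays of 24 h lie above those of 48 h in every panel, with either siRNA. The open triangle stands above its group for Id1, Id2, Id3, Skil and Smad6, and below it for Bambi. It reads 2203 against 958 and 896 for Id3, and 835 against 658 and 655 for Skil.

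The feedback inhibitors fell beside the ID genes. Smad6 read 683 and 637 at 24 h and 378, 326 and 352 at 48 h in siC cells, a change of -0.91 ± 0.11 (1.88-fold lower, adjusted p = 0.000394), and its siLsd1 arrays read 662 and 730.4 at 24 h, then 347, 381 and 414. Smad7 went from 634 and 793 to 263, 339.8 and 369.7, a change of -1.14 ± 0.15 (2.21-fold lower, adjusted p = 0.000588), with siLsd1 arrays at 763 and 755, then 457, 418 and 432. The siC groups of 24 h and 48 h did not overlap for either gene. Both calls were kept under all 18 alternatives, and the second Smad7 probe set gave -1.19. Skil, which is induced by TGF-beta and represses SMAD targets, went from 954 and 985 to 581, 652 and 721 (-0.58 ± 0.13, adjusted p = 0.00886). Its call was lost without siC 24 h replicate 1 (-0.60, adjusted p = 0.0553) or 2 (-0.56, 0.0687), and with the mean of its probe sets (-0.54, 0.0843; range 0.000196 to 0.0843). Bambi, itself a target of these signals, changed by -0.61 ± 0.20 on the arrays given above (adjusted p = 0.0486). That call stood near the threshold and was lost under 11 of 18 alternatives, among them leaving out any 1 array of siC 24 h, siLsd1 24 h or siC 48 h, or siLsd1 48 h replicate 2 (log2 -0.69 to -0.49, adjusted p 0.0608 to 0.216; range over the alternatives 0.00488 to 0.216).

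Among ligands, receptors and regulators, Tgfb2 went from 273 and 301 to 185, 181 and 193 in siC cells (-0.62 ± 0.12, adjusted p = 0.00543), and its 3 other probe sets gave -1.20, -0.82 and -1.21. The call was lost without siC 24 h replicate 2 (-0.55, adjusted p = 0.0607; range 0.000302 to 0.0607). Tgfbr3 went from 3054 and 3120.0 to 4617, 4771 and 5149 (0.65 ± 0.17, adjusted p = 0.0201), a call lost without siC 24 h replicate 1 or 2 (0.63 and 0.66, adjusted p = 0.113 and 0.0957) or siC 48 h replicate 2 or 3 (0.66 and 0.60, 0.0539 and 0.0623; range 6.91e-06 to 0.596), and its other probe set gave -0.45, with a mean of both of 0.10 (adjusted p = 0.596). Acvr1b, the type I receptor of activin, went from 298 and 273 to 462, 449.9 and 449 (0.67 ± 0.10, adjusted p = 0.00142). Leaving out any 1 array kept that call, while a second probe set, at a mean of 4.97, gave -1.85 and the mean of both -0.59. Bmp1 rose the most, by 1.17 ± 0.22 (2.25-fold, adjusted p = 0.00462), with adjusted p = 0.0543 and a change of 1.03 without siC 24 h replicate 2 (range 4.73e-06 to 0.120) and with 0.10 and 0.06 in its other probe sets, whose mean with the first was 0.45 and not called (adjusted p = 0.120). With siLsd1, Bmp1 stood at 327 and 322 at 24 h and 726, 760.3 and 424 at 48 h.

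Of the SMADs, Smad2 changed by -0.63 ± 0.14 in siC cells (adjusted p = 0.0102), from the array values given with the knockdown, and its other probe set gave 0.05. The call was lost without siC 24 h replicate 1 or 2 (-0.64 and -0.63, adjusted p = 0.0677 and 0.0691; range 0.000159 to 0.0691). Smad3 changed by 0.34 ± 0.08 (adjusted p = 0.0138), lost without the same arrays (0.36 and 0.32, adjusted p = 0.0697 and 0.0965; range 0.000975 to 0.864). Smad4 went from 2159.8 and 2202 to 2506, 2558 and 2663 (0.24 ± 0.07, adjusted p = 0.0347) and Smad5 from 639.8 and 708 to 835, 915 and 967 (0.43 ± 0.13, adjusted p = 0.0412). The Smad4 call was lost without any 1 array of siC 24 h, siLsd1 24 h or siC 48 h (0.22 to 0.26, adjusted p 0.0501 to 0.170; range 0.00168 to 0.790), and its 2 other probe sets gave -0.04 and -0.09. The Smad5 call was lost without any 1 array of 24 h or siC 48 h replicate 2 or 3 (0.35 to 0.50, adjusted p 0.0636 to 0.236; range 0.00123 to 0.684), and the mean of its probe sets gave -0.08. With the mean of the probe sets Smad3 and Smad4 both stood at 0.04, not called, and with no intensity trend the calls of Smad4 and Smad5 were lost (adjusted p = 0.0823 and 0.0655). The calls of Smad3, Smad4 and Smad5 thus depend on the scaling and on the probe sets.

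Of the 22 genes not called, as read through the brightest probe set, Grem1 had the largest change, at -0.87 ± 0.30 (adjusted p = 0.0606), followed by Fst at 0.55 ± 0.29 and Ltbp2 at -0.52 ± 0.19. Inhba, which rose with siLsd1 at both times, had a difference of -0.17 ± 0.10 (adjusted p = 0.244), and Inhbb of -0.20 ± 0.14. Ltbp3 stood at 0.41, Ltbp1 at -0.29, Tgif1 at -0.39, Smurf1 at -0.27, Acvr2a at -0.21 and Ski at 0.21. These 6 genes, Grem1, Fst, Ltbp2 and Tgfbr2 were called without siLsd1 48 h replicate 3, in the same directions. For Ltbp3 the other probe sets gave 0.31, 2.52 and 2.13, the last pair at means of 104.5 and 93.8, and the mean of its probe sets gave 1.34, which was called (adjusted p = 0.000772). That mean was -0.42 for Acvr2a, also called (adjusted p = 0.00892). Tgfb1, Tgfb3, Tgfbr1, Tgfbr2, Bmpr1a, Bmpr2, Acvr1, Eng, Fstl1, Smad1 and Smurf2 lay between -0.11 and 0.18.

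**Figure D4:**
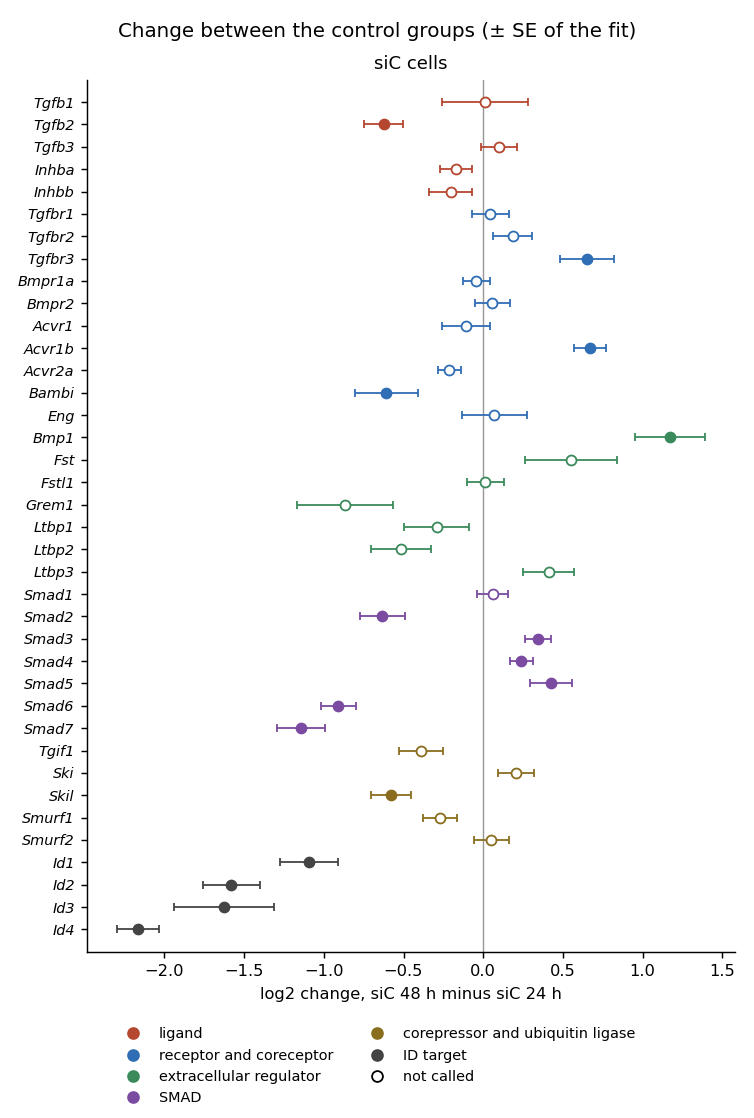
Log2 change of the 38 genes tested between the control groups (siC 48 h minus siC 24 h, x axis), ordered and coloured by role; points are estimates of the fit, bars ± SE, and filled points the genes called. The 4 ID genes, at -2.17 to -1.09, with Smad6 and Smad7, at -0.91 and -1.14, form the left edge, and Bmp1 at 1.17 the right.

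The wider pathway was read from 76 further genes, of which 67 were on the array and 46 passed the filter. With siLsd1 at 24 h 1 of the 46 was called, Nedd4l, a ubiquitin ligase that acts on SMAD2 and SMAD3, at 287 and 264 with siC and 414 and 429.9 with siLsd1 (0.62 ± 0.12, adjusted p = 0.0219), beside 5.39% of all genes. Without siLsd1 48 h replicate 3 there were 5 of 46, beside 25.5%: Map3k7, Nedd4l and Tab2 higher, Itgav and Tll1 lower. At 48 h 7 of 46 were called, 3 higher and 4 lower, beside the 12.7% of all genes, and 8 without that array, beside 18.1%, Pmepa1 being added. The 3 that rose act inside the cell. Map3k7, the kinase TAK1 of the SMAD-independent branch, read 327, 384 and 369 with siC and 498, 479 and 563 with siLsd1 (0.51 ± 0.09, adjusted p = 0.0115), and Tab2, its adaptor, changed by 0.26 ± 0.07 (adjusted p = 0.0473). Sik1, a kinase induced by TGF-beta, changed by 0.66 ± 0.18 (adjusted p = 0.0449).

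The 4 that fell encode secreted proteins. Tll1, a tolloid-like protease of the same family as Bmp1, read 47.7, 48.7 and 42.6 with siC and 31.5, 21.9 and 8.91 with siLsd1 (-1.34 ± 0.39, adjusted p = 0.0499). Bmper, a BMP-binding protein, read 430.1, 498 and 480.4 against 380.4, 339 and 256 (-0.55 ± 0.14, adjusted p = 0.0316). Inha, the inhibin alpha subunit that pairs with the product of Inhba or Inhbb to form inhibin, read 144, 158 and 149 against 114, 112 and 98.9 (-0.47 ± 0.11, adjusted p = 0.0279). Bgn, a small proteoglycan that binds TGF-beta, changed by -0.17 ± 0.05 (adjusted p = 0.0397). For none of these 4 did the siC and siLsd1 arrays of 48 h overlap, which adds no support, as they were named because they were called. Between the siC groups 4 of the 46 were called, 2 higher and 2 lower, beside the 24.2% of all genes, and 9 without siLsd1 48 h replicate 3, beside 40.4%.

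Genes that TGF-beta or activin is known to induce were listed as 21, of which 19 were tested. At 24 h Cdkn1a (0.33 ± 0.07, adjusted p = 0.0291) and Cdkn2b (0.39 ± 0.10, adjusted p = 0.0492), inhibitors of the cell cycle, rose, while Tgfbi (-0.93 ± 0.23, adjusted p = 0.0435) and fibronectin, Fn1 (-0.46 ± 0.09, adjusted p = 0.0249), matrix genes, fell, which made 4 of 19 beside 5.39% of all genes. At 48 h, where 12.7% of all genes were called, 3 rose and 0 fell: Ccn2, also called connective tissue growth factor (45.1, 38.5 and 55.4 against 95.1, 70.4 and 140.0; 1.10 ± 0.23, adjusted p = 0.0187), the smooth muscle actin gene Acta2 (0.32 ± 0.09, adjusted p = 0.0442) and Cdkn1a (0.21 ± 0.06, adjusted p = 0.04). At an unadjusted p under 0.05 there were 7 of 19 at 24 h and 11 at 48 h, beside 22.5% and 31.7% of all genes. The list's median change was -0.04 at 24 h and -0.05 at 48 h, beside -0.02 for all genes. Without siLsd1 48 h replicate 3, 8 of 19 were called at 24 h, 4 in each direction, beside 25.5% of all genes, and 6 at 48 h, 4 higher and 2 lower, beside 18.1%. In siC cells 1 of 19 was higher and 6 were lower at 48 h than at 24 h, beside 12.0% and 12.2% of all genes; without siLsd1 48 h replicate 3 these were 2 and 7, beside 21.1% and 19.3%.

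Of 14 further BMP targets 9 were tested. At 24 h limma called 0, beside 5.39% of all genes, with 1 at an unadjusted p under 0.05, beside 22.5%. At 48 h the homeobox gene Dlx2 read 88, 78.4 and 72.4 with siC and 129, 130.3 and 151 with siLsd1 (0.78 ± 0.12, adjusted p = 0.00549), and Rasl11b, which encodes a small GTPase-like protein, 231, 214 and 212 against 134, 139 and 109 (-0.79 ± 0.11, adjusted p = 0.00448). The former rose and the latter fell, with no overlap of arrays, which adds no support, as both were named because they were called. That made 2 of 9, beside 12.7% of all genes, and Dlx2 was called higher at 24 h too without siLsd1 48 h replicate 3. In siC cells limma called 2 of the 9 lower and 0 higher at 48 h than at 24 h, beside 24.2% of all genes called. At an unadjusted p under 0.05 there were 3 of the 9, beside 36.4% of all genes. Without that array 3 were called, Rasl11b being higher, beside 40.4%.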

How the data were processed

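RNA of 10 cultures was hybridised to 1 Affymetrix array each. The deposited values are linear probe set intensities, 1 per probe set and array. The sources used here do not say how the authors summarised and normalized them; array medians were 35.6 to 40.6. Here log2 was taken with nothing added. Of 45037 probe sets 34945 had 1 gene symbol, and the brightest per gene on average was kept. The dimmest 25% of 18193 genes (geometric mean up to 18.4) were left out. limma 3.58.1 in R 4.3.3 was fitted to the 4 group means (eBayes with an intensity trend, 6 residual degrees of freedom), with Benjamini-Hochberg adjustment over 13644 genes and calls at adjusted p under 0.05. P-values measure only the spread between these cultures. The fit was tested on simulated data. Replicate numbers were not taken as pairs in the fit. Members, lists and tests were chosen with earlier results of these data known; every member was described, and of the further pathway genes and targets those called, up to 4 per list and knockdown comparison with the largest change. Promoter sequences come from RefSeq (GRCm38.p6); the files name no genome build. Alternatives in filter, probe sets, scaling, model and arrays were tried.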

Additional observations from a re-analysis of the deposited data

How the results depend on the processing

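Member counts of 3 at 24 h, 7 at 48 h and 16 between the siC groups depended on some settings, and the 0 for the difference of the siLsd1 changes on none of those tried. Averaging the probe sets of each gene gave 1, 4 and 10, beside 427, 948 and 2694 of all 13644 genes. The main fit called 736, 1728 and 3302 of all genes. The averaging reversed Inhba at 24 h (-0.34) and Acvr1b (-0.59) and Smad5 (-0.076) between the siC groups. Dim probe sets entered the means of Inhba (at 17.7) and Acvr1b (at 4.97). The further probe sets of Smad5, at 71.8 and 106.5, were not dim. With no intensity trend 2 were called at 24 h, the call of Bmpr2 being lost, and 2 at 48 h, beside 402 and 1006 of all genes. With only the arrays of the groups compared, 13 were called at 24 h and 0 at 48 h, beside 3183 and 250 of all genes. Leaving out 1 array at a time gave 0 to 13 calls at 24 h, 0 to 10 at 48 h and 7 to 26 between the siC groups; where this left 1 array in a group, that array was assumed to vary like the others. A replicate block by number gave 0 at 24 h and 2 at 48 h, beside 149 and 665 of all genes. A replicate block by sample code gave 7 and 9, beside 1467 and 2251. By replicate number, correlations of deviations across genes were -0.19 to 0.05. Some sample codes share a number between siC and siLsd1, and the 24 h pair among them gave 0.07. With 2 arrays per group at 24 h, deviations mirror each other, so a pairing can hardly be judged there. The labels name no shared culture. The other settings (no filter, the lowest 50% left out, quantile normalization, median centring, 16 added) kept the counts within 1.5-fold, at 3 at 24 h, 6 to 10 at 48 h and 15 to 18 between the siC groups. Beside these stood 607 to 870, 1379 to 2045 and 3032 to 3676 of all genes, of which 9096 to 18193 were tested. Of 759 results of single genes under alternatives at 24 h 715 kept their side of the threshold, as did 684 of 759 at 48 h and 609 of 683 between the siC groups. Dim genes, Bmp2, Bmp4 and Bmp6 among them, and the number of arrays limit what could be read.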
